A study of Mus musculus with 3 samples.

Results

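The CC chemokine ligands described here are 10 secreted proteins of the mouse, encoded by Ccl2, Ccl3, Ccl4, Ccl5, Ccl6, Ccl7, Ccl9, Ccl12, Ccl17 and Ccl22. They were taken by gene symbol from a named list, with no threshold on a measured value, and are 10 of 55536 annotated genes in the gene table. Levels come from 3 total RNA libraries of the cytosol, depleted of ribosomal RNA and sequenced from primary macrophages (C57BL/6J mice) derived from bone marrow. All 3 belong to 1 group. The cells were exposed to Lipid A, the membrane-anchoring part of bacterial lipopolysaccharide, at 100 ng/ml for 12 h, kept without it for 12 h after washing, and exposed again at 100 ng/ml for 90 min. Cells left unexposed, and cells exposed once, were not analysed here, so no level below can be assigned to either exposure. The labels number the libraries as biological replicates 1 to 3 but give them the same donor record, and sex and age were not collected. The p-values below therefore measure the spread between these samples, which may be partly technical.

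Chemokines are small secreted proteins that steer leukocytes by binding receptors of the G protein-coupled type on the target cell. CC chemokines carry a pair of adjacent cysteines near the start of the mature protein, which gives the family its name. Macrophages that sense lipopolysaccharide through Tlr4 transcribe many of these genes, and the proteins they release draw monocytes, T cells and other leukocytes to the site. By function, the 10 ligands fall into groups: Ccl3, Ccl4 and Ccl5 draw T cells and monocytes; Ccl2, Ccl7 and Ccl12 bind Ccr2 and draw monocytes; Ccl6 and Ccl9 bind Ccr1; and Ccl17 and Ccl22 bind Ccr4.

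The family is recognisable in the coding sequence. Each of the 10 coding transcripts of the GENCODE M21 annotation held 1 pair of adjacent cysteine codons. The stretches below, of 42 bases each, are shown for the 3 pairs of members with the most similar coding sequences and for Ccl5, the most abundant member. They run 5′ to 3′ on the coding strand, with the cysteine pair in capitals.
Ccl3: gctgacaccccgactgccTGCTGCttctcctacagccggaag
Ccl4: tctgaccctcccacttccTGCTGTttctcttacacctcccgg
Ccl6: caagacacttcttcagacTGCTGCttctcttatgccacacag
Ccl9: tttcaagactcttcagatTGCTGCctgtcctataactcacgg
Ccl7: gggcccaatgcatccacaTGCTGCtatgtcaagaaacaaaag
Ccl12: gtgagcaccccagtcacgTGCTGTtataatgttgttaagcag
Ccl5: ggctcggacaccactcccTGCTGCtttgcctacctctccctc

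The paired stretches differ at several bases around the cysteine codons, and so do the whole coding sequences. Identity over the aligned coding sequence was 67.0% for Ccl3 and Ccl4, 64.8% for Ccl6 and Ccl9, and 63.5% for Ccl7 and Ccl12. The longest identical run shared by any 2 members' coding transcripts was 25 bases, between Ccl6 and Ccl9, followed by 23 bases between Ccl2 and Ccl7. The posterior SD that the authors' program gave for a member's count was at most 0.03 counts.

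On mm10, 8 of the members lie on chromosome 11 and 2 on chromosome 8. The Ccr2 ligands form 1 group on the plus strand of chromosome 11, with Ccl2 (ENSMUSG00000035385.5) at 82035571 to 82037453, Ccl7 (ENSMUSG00000035373.2) at 82045712 to 82047525 and Ccl12 (ENSMUSG00000035352.3) at 82101845 to 82103400. A second group begins 1422 kb further along the same chromosome. On its minus strand are Ccl5 (ENSMUSG00000035042.2) at 83525778 to 83530518, Ccl9 (ENSMUSG00000019122.8) at 83572919 to 83578636, Ccl6 (ENSMUSG00000018927.3) at 83587882 to 83593087 and Ccl3 (ENSMUSG00000000982.5) at 83647844 to 83649355. Ccl4 (ENSMUSG00000018930.3), at 83662584 to 83664683, lies 13.2 kb past Ccl3 and on the plus strand. On chromosome 8, Ccl22 (ENSMUSG00000031779.3) at 94745590 to 94751699 and Ccl17 (ENSMUSG00000031780.2) at 94810453 to 94812036 are both on the plus strand, 58.8 kb apart. Genes on the opposite strand overlap Ccl2 (Gm17268) and Ccl6 (E230016K23Rik, at most 0.08 TPM). Gm17268 had 0 counts in every library, but its effective length, the length used for TPM, was not above 0. Its 0 counts therefore say nothing of its level. Counting by strand is not stated in the sources used here, so reads of such overlapping genes may not have been told apart.

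Depth, as total expected counts, was 40730514 in replicate 1, 70484996 in replicate 2 and 49726063 in replicate 3. Macrophage markers were present throughout: 6 of 6 were detected, and their summed level was 4738, 5417 and 4748 TPM. Markers of neutrophils (6), T and NK cells (6), B cells (4), mast cells and basophils (4) and stromal and endothelial cells (5) were all below 1 TPM in mean level. Of 6 dendritic cell markers, Ccr7 and Batf3 were detected, and the summed level of the list was 3.10, 2.67 and 3.09 TPM, while Flt3, Zbtb46, Xcr1 and Clec9a had mean levels of at most 0.0967 TPM. The libraries also differed in nuclear and small noncoding RNA. Malat1, a nuclear long noncoding RNA, stood at 103, 132 and 345 TPM in replicates 1, 2 and 3, and Rn7sk, the 7SK small nuclear RNA, at 21186, 37904 and 76327 TPM.

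Of the 10 ligand mRNAs, 9 reached the detection level of 1 TPM in each of the 3 libraries, against 16.7% of all annotated genes. TPM is a share of all transcripts in the library, corrected for transcript length, so it can be compared between genes. The median of the 9 detected members' mean levels was 423 TPM, and that of the 9276 genes detected was 8.31 TPM. Together the members made up 1.08, 0.689 and 0.789% of all TPM in replicates 1, 2 and 3, and 3.26, 2.33 and 2.82% of the TPM of nuclear protein-coding genes. Because these are bulk samples, fewer cells making a ligand and less of its RNA per cell cannot be told apart.

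**Figure D1:**
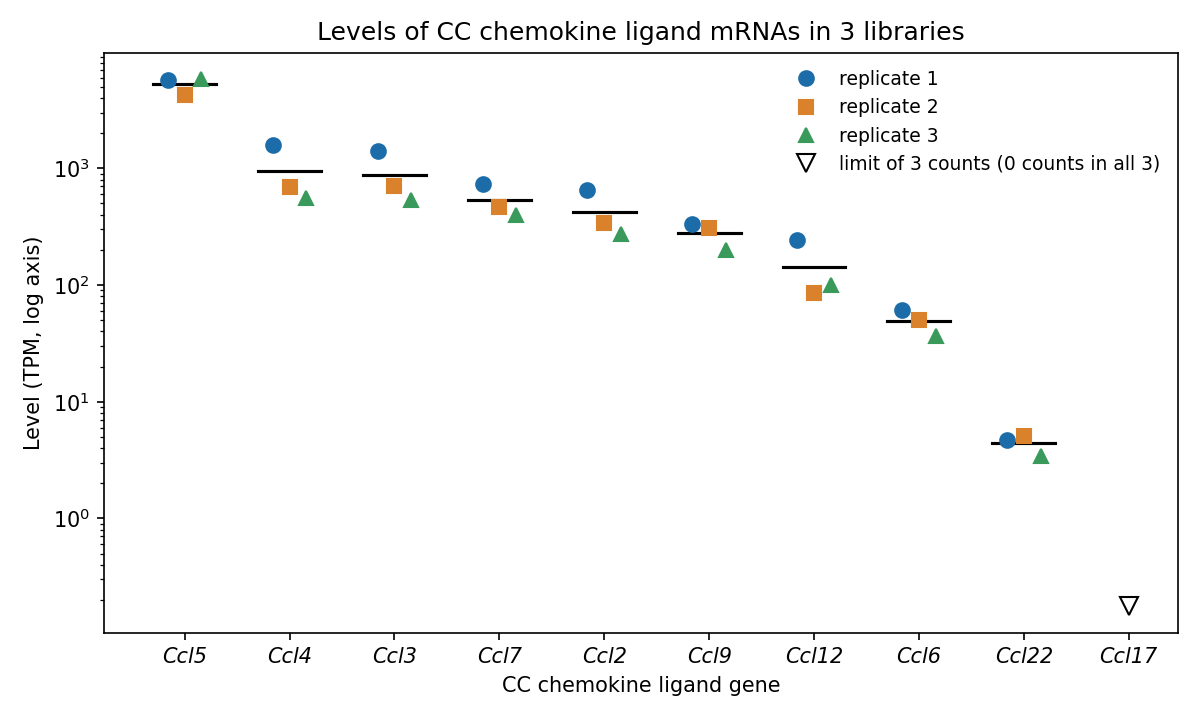
Level of each CC chemokine ligand mRNA in TPM (log axis), with 1 symbol per library, a bar at the mean of 3 libraries, and an open triangle at the limit of 3 counts for Ccl17. Ccl5 lies highest at a mean of 5268 TPM, Ccl22 is the lowest of the detected members at 4.41 TPM, and for 7 of the 9 detected members replicate 1 is the highest library.

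Ccl5 (RANTES), a ligand of Ccr1 and Ccr3 that attracts T cells and monocytes, was the most abundant member. It stood at 5764, 4248 and 5792 TPM in replicates 1, 2 and 3, with a mean of 5268 ± 883 TPM (SD, n = 3). That mean was the 8th highest of all genes detected and the 3rd highest among protein-coding genes. Replicate 2 was the lowest library for Ccl5, and the other two nearly coincided. Ccl5 alone took 53.3, 61.6 and 73.5% of the summed TPM of the 10 members.

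Ccl4 (MIP-1β) and Ccl3 (MIP-1α), inflammatory attractants of the same functional group, came next. Ccl4 stood at 1598, 688 and 554 TPM (946 ± 568 TPM, SD, n = 3) and Ccl3 at 1407, 708 and 532 TPM (882 ± 463 TPM). Replicate 1 was the high library for both. The SD of their ratio was far below that of either level: the log2 ratio of Ccl3 to Ccl4 was -0.18, 0.04 and -0.06, with a mean of -0.07 ± 0.11 (SD, n = 3), whereas the SD of the log2 level was 0.72 for Ccl3 and 0.81 for Ccl4. Their order also differed between libraries, Ccl4 being above Ccl3 in 2 of 3. A steady ratio was not particular to this pair. In root mean square distance of log2(TPM + 1), centred on each gene's mean, Ccl3 lay nearer to Ccl2 (0.054) than to Ccl4 (0.091). Ccl5 did not keep a steady ratio to Ccl4: the log2 ratio was 1.85, 2.63 and 3.39 in replicates 1, 2 and 3 (2.62 ± 0.77).

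The Ccr2 ligands occupied the middle of the range. Ccl7 (MCP-3), which also binds Ccr1 and Ccr3, stood at 734, 464 and 396 TPM (532 ± 179 TPM, SD, n = 3). Ccl2 (MCP-1), the classical monocyte attractant, stood at 658, 339 and 272 TPM (423 ± 206 TPM). Both were highest in replicate 1 and lowest in replicate 3, and Ccl7 was above Ccl2 in each library. The log2 ratio of Ccl2 to Ccl7 was -0.39 ± 0.20, smaller in size than the difference of either from Ccl12.

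Ccl12 (MCP-5), a mouse Ccr2 ligand, was the least abundant of the 3, at 244, 85.2 and 100.1 TPM (143 ± 87.6 TPM, SD, n = 3). Its log2 ratio was -1.62 ± 0.32 to Ccl2 and -2.01 ± 0.43 to Ccl7, and it was below both in every library. Unlike Ccl2 and Ccl7, it was lowest in replicate 2, though in the second transcript table replicates 2 and 3 were nearly equal (51.2 and 51.1 TPM). Replicate 1 stood well apart from the other two, which lay close together.

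Ccl9 and Ccl6, ligands of Ccr1 that are found in rodents, lie next to each other in the genome and differed in level. Ccl9 stood at 334, 306 and 199 TPM (279 ± 71.3 TPM, SD, n = 3) and Ccl6 at 61.6, 50.5 and 36.8 TPM (49.6 ± 12.4 TPM). Their log2 ratio was 2.44, 2.60 and 2.43 (2.49 ± 0.09), with an SD far below that of either log2 level (0.40 for Ccl9 and 0.38 for Ccl6). On protein-coding transcripts alone, an alternative chosen after seeing the data, the mean log2 ratio was 1.51. Ccl9 then stood at 174, 137 and 90.8 TPM and Ccl6 at 53.6, 48.0 and 36.2 TPM. Their ratio was less steady on that scale, falling from replicate 1 to replicate 3. Both were lowest in replicate 3.

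The Ccr4 ligands, which attract T cells that carry that receptor, were at the bottom of the range. Ccl22 (MDC) stood at 4.72, 5.09 and 3.42 TPM (4.41 ± 0.877 TPM, SD, n = 3), from 583, 1202 and 601 counts, and ranked 6409th among genes detected. Ccl17 (TARC), its neighbour on chromosome 8, had 0 counts in every library. The limit that 3 counts would set was at most 0.177 TPM, and the second transcript table listed it at 0, 0.0163 and 0.0194 TPM, or at most 1 count.

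Set in order of mean TPM, the members ran Ccl5, Ccl4, Ccl3, Ccl7, Ccl2, Ccl9, Ccl12, Ccl6, Ccl22 and Ccl17. Each was above the next in 3 of 3 libraries except Ccl4 and Ccl3. The steps were unequal: Ccl5 was 5.57 times Ccl4 by ratio of means, and Ccl6 was 11.3 times Ccl22, while Ccl7 was 1.26 times Ccl2. For 4 pairs of neighbours, Ccl4 and Ccl3, Ccl3 and Ccl7, Ccl7 and Ccl2, and Ccl2 and Ccl9, the difference of means was smaller than the larger of their SDs. With 3 libraries the smallest p of an exact sign-flip test that looks in both directions is 0.25, so these orderings carry no p-value.

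Several members were high in the same library. Of the 9 detected members, 7 were highest in replicate 1, against 47.7% of the 9276 genes detected, and 7 were lowest in replicate 3, against 53.9%. The exceptions were Ccl22, highest in replicate 2, Ccl5, highest in replicate 3 and lowest in replicate 2, and Ccl12, lowest in replicate 2. Some of these orders changed with the table or scale. In the second transcript table Ccl5 was highest in replicate 1 (3023, 2510 and 2956 TPM), and Ccl12 was lowest in replicate 3 (128, 51.2 and 51.1 TPM). With TPM rescaled over nuclear protein-coding genes, Ccl9 was highest in replicate 2 (1007, 1035 and 711 TPM). The level in replicate 1 over the mean of the other two was 2.63-fold for Ccl12, 2.57-fold for Ccl4, 2.27-fold for Ccl3, 2.15-fold for Ccl2 and 1.71-fold for Ccl7. It was 1.41-fold for Ccl6, 1.32-fold for Ccl9, 1.15-fold for Ccl5 and 1.11-fold for Ccl22. The median log2 ratio over the 9 members was 0.77, and over all genes detected 0.07. Malat1 and Rn7sk were lowest in the same library, and their part in the difference was not tested.

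**Figure D2:**
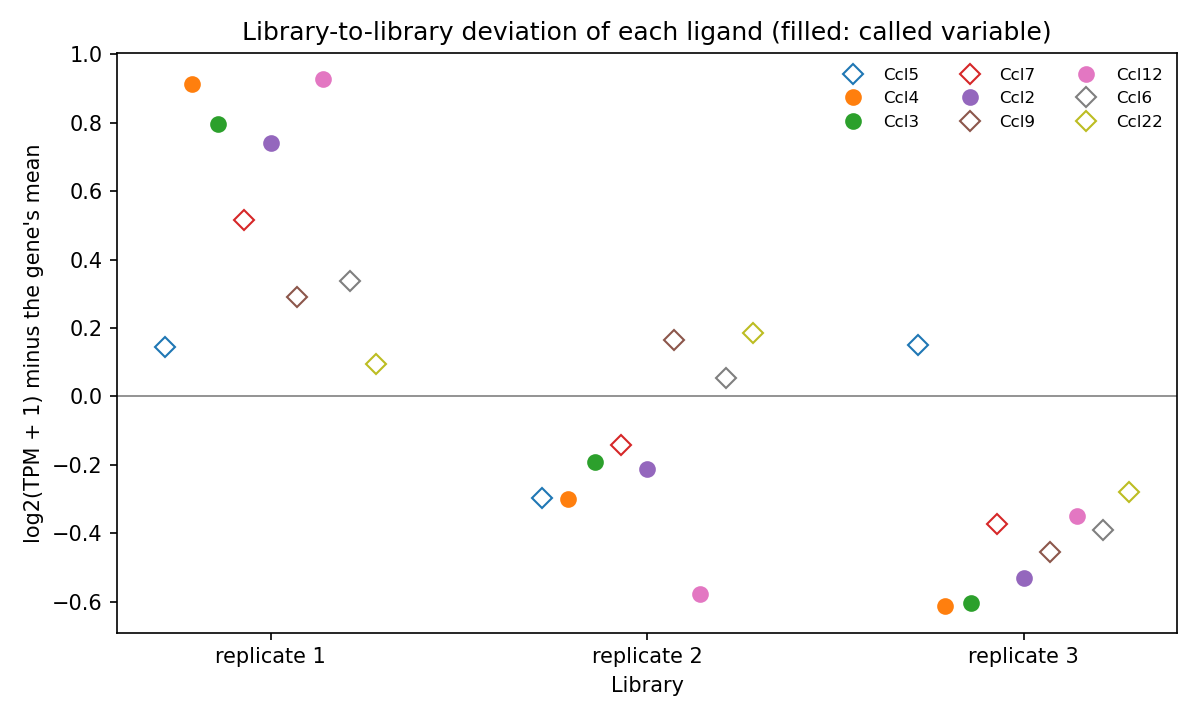
Deviation of each detected ligand in each library, as log2(TPM + 1) minus the gene's mean over 3 libraries, with filled circles for the 4 members called variable and open diamonds for the other 5. All 9 lie above 0 in replicate 1, and 8 of the 9, Ccl5 being the exception, lie below 0 in replicate 3. With TPM rescaled over nuclear protein-coding genes (not drawn), Ccl22 lay below its mean in replicate 1.

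Whether a member varied between libraries more than genes of similar abundance was tested in edgeR, with Benjamini-Hochberg adjustment over all 12256 genes tested. The test called 240 genes, or 1.96%, at an adjusted p of 0.05. Of the 9 members tested it called 4: Ccl12 (adjusted p = 2.68e-05), Ccl4 (0.00507), Ccl3 (0.0329) and Ccl2 (0.0496). Ccl7 (adjusted p = 0.759), Ccl9 (0.853), and Ccl5, Ccl6 and Ccl22 (each 1.000 to 3 decimals) did not pass. The median SD of log2 CPM, counts scaled to library size, was 0.40 for the 9 members and 0.16 for all genes tested. The Ccl2 call was lost with the second transcript table's counts (adjusted p = 0.0530 in edgeR) and with a common dispersion (0.0514). The calls depended on the libraries kept, and Ccl2 and Ccl3 were no longer called whichever library was left out. Without replicate 1 edgeR called 0 members, with 0 at an unadjusted p under 0.05, and 112 of 12762 genes tested. Without replicate 2 the test called Ccl4 and Ccl12, with 6 members at an unadjusted p under 0.05, and 102 of 12323 genes. Without replicate 3 it called Ccl12, with 4 members at an unadjusted p under 0.05, and 81 of 12539 genes.

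**Figure D3:**
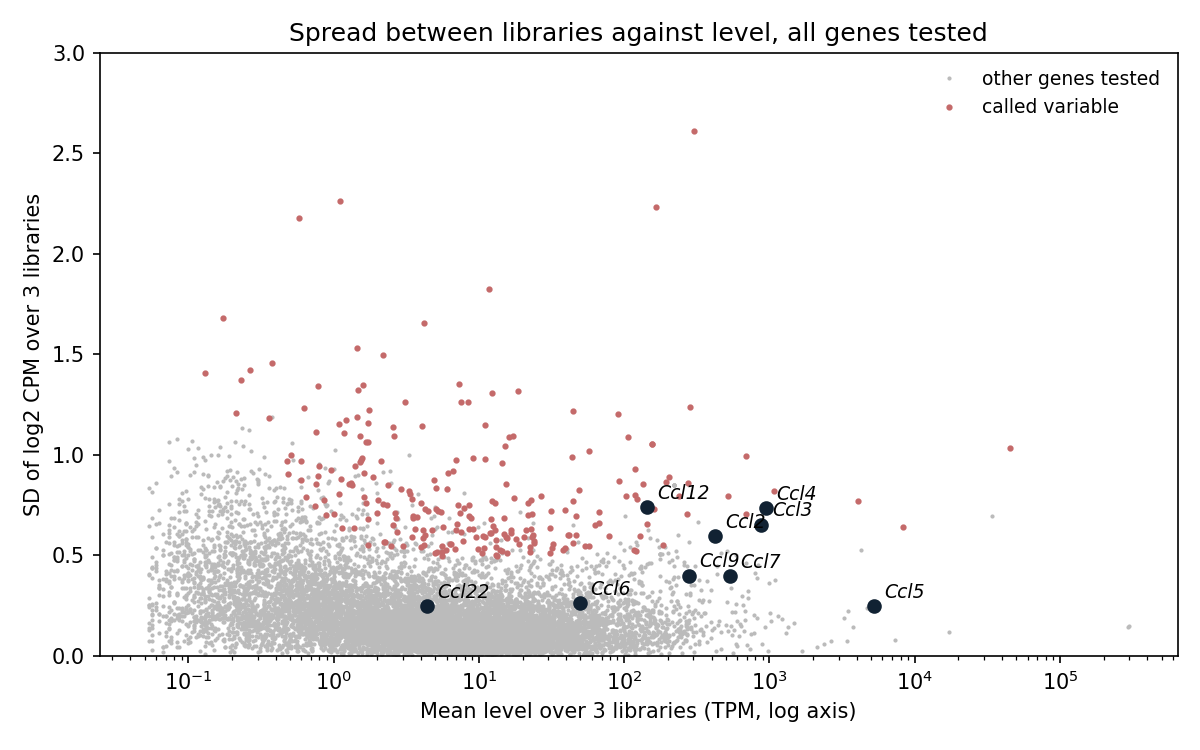
SD of log2 CPM over 3 libraries against mean level in TPM (log axis) for the genes tested above 0.05 TPM, with genes called variable in red and the 9 tested ligands as labelled dark points. Ccl12, Ccl4, Ccl3 and Ccl2 have SDs of 0.60 to 0.74, while Ccl5, Ccl6 and Ccl22 have SDs of 0.25 to 0.26.

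The 3′ untranslated regions were searched for a motif of short-lived cytokine mRNAs. AU-rich elements, built on the motif ATTTA, are bound by proteins that set the decay of many inflammatory mRNAs. Ccl12 held 5 copies of ATTTA in a 3′ region of 167 bases, a count reached by 0.325% of the 615 genes with a 3′ region of like length. Ccl3 held 5 copies in 409 bases, a count reached by 0.914% of 985 such genes. Windows of 30 bases from these 2 regions, with ATTTA in capitals, show how closely the copies lie. The Ccl12 window begins 92 bases after the stop codon and the Ccl3 window 139 bases after it.
Ccl12: ATTTAaacaaacttgcttaaataatATTTA
Ccl3: gactcttcacttgaaattttATTTAATTTA

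The other members held fewer copies for their length. Ccl4 and Ccl7 held 2 copies each (11.9 and 20.0% of like genes had as many), Ccl6 held 4 (15.0%), Ccl2 held 1 (35.4%), Ccl9 held 5 in 2465 bases (48.3%) and Ccl22 held 2 (74.2%). Ccl5 and Ccl17 held 0, and the longer motif TTATTTATT was found in 0 of the 10. A match describes the letters of the annotated transcript and says nothing of decay in these cells, which was not measured.

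The RefSeq promoter table (GRCm38.p6) holds 6 of the 10 members, Ccl3, Ccl6, Ccl9, Ccl12, Ccl17 and Ccl22, with 250 bases before and 50 after the annotated start. Both strands were searched for TATAAA, the kappaB consensus, GAAANNGAA (interferon response), TGANTCA (AP-1) and TTGCNNAA (C/EBP), and overlapping matches were each kept. The 3 members with a match are shown by the 100 bases that end just before the start, with the matches in capitals. Ccl12 is at chr11:82101745-82101844 on the plus strand, Ccl9 at chr11:83578637-83578736 and Ccl3 at chr11:83649379-83649478, both on the minus strand.
Ccl12: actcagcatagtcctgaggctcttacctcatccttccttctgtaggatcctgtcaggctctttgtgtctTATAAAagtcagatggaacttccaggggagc
Ccl9: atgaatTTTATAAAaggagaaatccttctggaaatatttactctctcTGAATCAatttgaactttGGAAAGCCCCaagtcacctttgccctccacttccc
Ccl3: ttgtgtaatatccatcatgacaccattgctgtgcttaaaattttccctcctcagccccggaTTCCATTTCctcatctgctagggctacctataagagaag

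In the Ccl12 stretch, TATAAA spans bases -31 to -26 from the start. In Ccl9, 2 overlapping TATAAA matches on opposite strands lie at -94 to -87, TGANTCA at -53 to -47 and a kappaB match, read on the strand opposite to the gene's, at -35 to -26, and a further TATAAA match lies at -224, outside the stretch shown. In Ccl3, GAAANNGAA is read at -39 to -31 on the strand opposite to the gene's, so the printed stretch shows its reverse complement. Among all 32851 promoters of the table, 13.6% hold TATAAA, 4.51% the kappaB consensus, 8.56% GAAANNGAA, 7.81% TGANTCA and 10.8% TTGCNNAA. The windows of Ccl6, Ccl17 and Ccl22 held 0 matches to these letters, which says nothing about the factors.

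The mRNA form behind each level was the annotated coding transcript for most members. The annotation gives 17 transcripts for the 10 genes, of which 7 are noncoding, 4 as retained introns and 3 as processed transcripts. Ccl3, Ccl4, Ccl7 and Ccl17 have 1 transcript each. In the first transcript table the coding transcript took 90% or more of the gene's TPM on average in 8 of the 9 members with counts. It took 99.8 ± 0.133% for Ccl2, 99.9 ± 0.0462% for Ccl5, 97.8 ± 0.627% for Ccl12 and 93.5 ± 5.93% for Ccl6 (SD, n = 3).

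Ccl9 was the exception. Ccl9-202, a processed transcript of 398 bases with no annotated coding sequence, took 47.9, 55.3 and 54.3% of the gene's TPM in replicates 1, 2 and 3, but 5.01, 7.32 and 6.65% of its counts. The coding transcript Ccl9-201 is 3006 bases long, so a given number of reads weighs more in TPM on the shorter form, and 359 of the 398 bases of Ccl9-202 lie inside exons of Ccl9-201. The second transcript table gave Ccl9-202 59.0, 62.1 and 60.2% of the TPM. Counted by the coding transcript alone, an alternative chosen after seeing the data, Ccl9 stood at 134 ± 41.7 TPM (SD, n = 3), and by mean it then lay below Ccl12, at 140 ± 84.7 TPM on the same scale.

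For Ccl6 the tables differed. Ccl6-202, a retained intron form of 776 bases, took 12.7, 4.92 and 1.40% of the gene's TPM in the first transcript table and 35.6, 32.7 and 24.2% in the second. It was lowest in replicate 3 in both. Its counts in the first table were 261, 163 and 24.6.

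**Figure D4:**
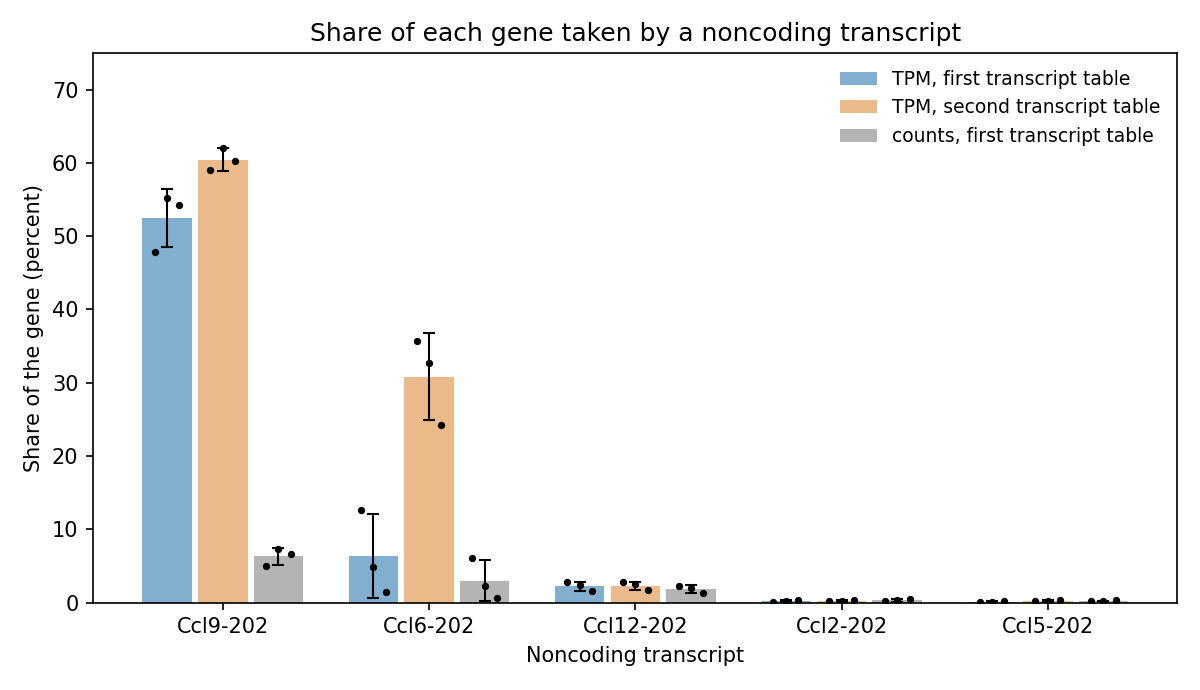
Share of a gene taken by a noncoding transcript, in percent, for 5 transcripts, as a share of TPM in the first transcript table (blue), of TPM in the second (orange) and of counts in the first (grey), with bars at the mean, lines for the SD of 3 libraries and points for the libraries. Ccl9-202 takes 52.5% of TPM in the first table, 60.4% in the second and 6.32% of counts, and Ccl6-202 takes 6.34% of TPM in the first and 30.8% in the second.

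Of 11 other CC ligand genes, 2 were detected. Ccl8 (MCP-2), which lies beyond Ccl12 on chromosome 11, stood at 175, 78.5 and 98.7 TPM (118 ± 51.2 TPM, SD, n = 3) and, like Ccl12, was highest in replicate 1 and lowest in replicate 2. It was called variable (adjusted p = 0.0303 in edgeR), but not without replicate 1 (1.000) or without replicate 2 (0.659). In all 3 libraries its call was also lost with no filter on low counts (0.0506), with the second transcript table's counts (0.0658) and with a common dispersion (0.172). Ccl25 stood at 2.16 ± 0.241 TPM and Ccl27a, the next in level, at 0.253 ± 0.0603 TPM, and 6 of the 11 had 0 counts in every library.

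The CC receptors described here had mean levels of 0 to 7.17 TPM. Ccr1, bound by Ccl3, Ccl5, Ccl6, Ccl7 and Ccl9, stood at 8.39, 7.45 and 5.67 TPM (7.17 ± 1.38 TPM, SD, n = 3), below the level of every detected member other than Ccl22. Ccr2, the receptor of Ccl2, Ccl7 and Ccl12, stood at 2.13 ± 0.231 TPM, and Ccr7, the receptor of Ccl19 and Ccl21, at 1.45 ± 0.169 TPM. Ccr3 stood at 0.687 ± 0.255 TPM, below the detection level, and Ccr4, the receptor of Ccl17 and Ccl22, had 0 counts. Ccr1, Ccr2, Ccr3 and Ccr7 did not pass the variability test. Of 4 atypical receptor genes, Ccrl2, which binds chemerin, was detected at 240, 172 and 95.6 TPM (169 ± 72.2 TPM, adjusted p = 0.108 in edgeR, and 0.0127 with DESeq2's trended dispersion), and the others were at most 0.00667 TPM in mean level.

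Of 8 genes that carry the receptor signal, 8 were detected and 0 passed the variability test. The highest were Rac2, a GTPase of leukocyte migration (180 ± 30.8 TPM, SD, n = 3), Gnai2, the main inhibitory G protein subunit (177 ± 9.38 TPM), and Gnb1, a G protein beta subunit (127 ± 7.95 TPM). Of 8 genes that end the signal, 7 were detected and 1 was called variable. That gene was Rgs1, a regulator of G protein signalling, at 819, 503 and 235 TPM over all its transcripts (adjusted p = 0.00358 in edgeR). It missed the threshold without replicate 1 (0.0842) and without replicate 3 (0.980). On protein-coding transcripts alone, an alternative chosen after seeing the data, Rgs1 stood at only 43.6, 24.1 and 11.3 TPM. Its mean of 26.3 TPM was then below that of Arrb2 (91.0 TPM) and Grk2 (47.6 TPM) on the same scale. Arrb2, an arrestin, stood at 93.8 ± 4.24 TPM and Grk2, a receptor kinase, at 49.7 ± 3.99 TPM.

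Among 6 proteases that can trim chemokines, 3 were detected and 2 were called variable. Mmp14 stood at 98.1 ± 14.8 TPM (SD, n = 3). Mmp13 stood at 19.0, 9.53 and 4.45 TPM (adjusted p = 9.20e-09 in edgeR) and Mmp12, macrophage elastase, at 11.1, 6.05 and 2.71 TPM (3.63e-06), and both were highest in replicate 1. Without replicate 3, Mmp13 (0.0589) and Mmp12 (0.184) no longer passed, and without replicate 1 Mmp12 did not (0.108). Dpp4, which removes the first residues of several chemokines, was at 0.147 ± 0.120 TPM. Of 6 proteoglycan genes whose products hold chemokines at the cell surface or in granules, 4 were detected and 0 of 5 tested were called, with Sdc4 at 288 ± 79.8 TPM, Sdc3 at 221 ± 27.3 TPM and Srgn at 152 ± 28.5 TPM.

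**Figure D5:**
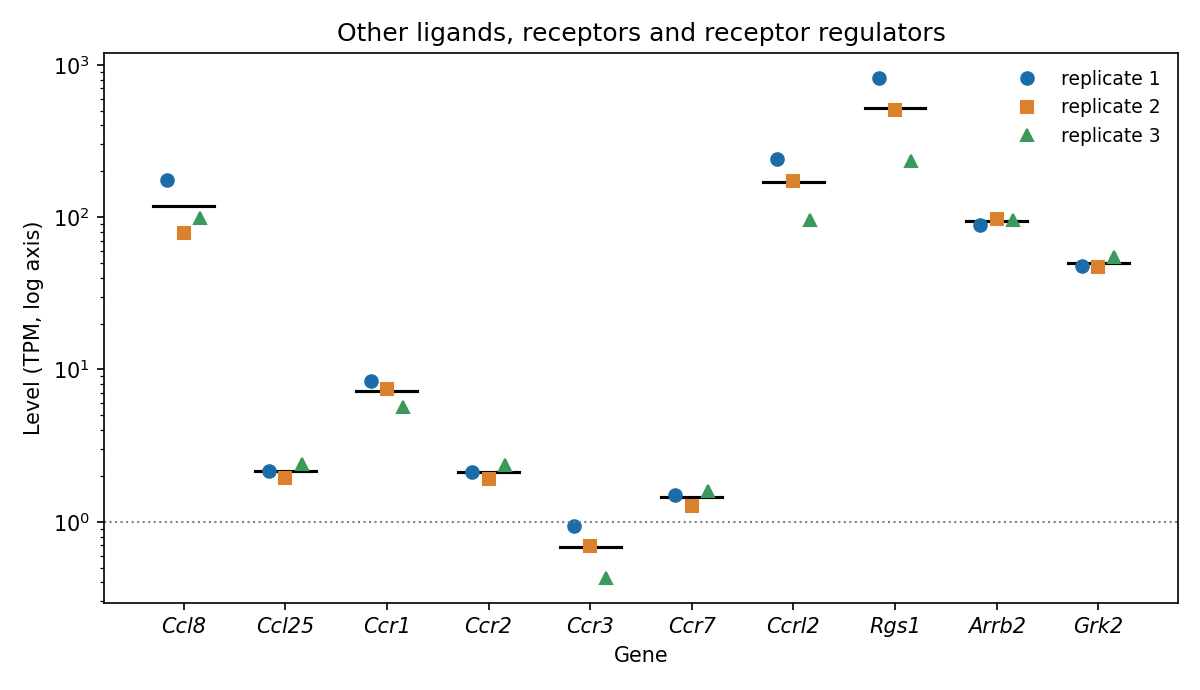
Level in TPM (log axis) of 2 other CC ligands, of 4 CC receptors, the atypical receptor Ccrl2 and 3 receptor regulators, with 1 symbol per library, a bar at the mean and a dotted line at 1 TPM. Ccr1, Ccr2 and Ccr7 lie above the line in all 3 libraries, and Ccr3 lies below 1 TPM in all 3 libraries. Rgs1 spans 235 to 819 TPM over all its transcripts, and 11.3 to 43.6 TPM on protein-coding transcripts alone (not drawn).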

How the data were processed

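Each of the 3 libraries has a gene table and 2 transcript tables on mm10 with GENCODE M21, per the deposited README notes. The sources used here do not name the authors' programs. Expected counts were deposited without normalization, and so were the estimated counts of the second transcript table, per the file headers. TPM was computed by the authors with an effective length correction. Percent values, deposited in the first transcript table, give each transcript's part of its gene's TPM, per the file headers. The posterior SD of a count is the authors' value in counts. FPKM was not used.

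Depth was 40730514, 70484996 and 49726063 expected counts, so counting error is small for the members other than Ccl22 and Ccl17; the limit of 3 counts covers counting error only. Features other than annotated genes, control sequences and tRNA features among them, were left out of library sizes (together 0.227, 0.110 and 0.0959% of counts). The detection level was 1 TPM, to be reached in each library. For the variability test, expected counts were rounded, scaled by TMM, filtered with filterByExpr and fitted in edgeR 4.0.16 (R 4.3.3) with its trended dispersion. The residual deviance under an intercept was set against chi-square, and p-values were adjusted over all genes. The test was also run on counts simulated with its own trended dispersion, which cannot show whether that dispersion suits these data. DESeq2 1.42.0 gave alternative size factors and dispersions. Ratios of members used TPM without a pseudocount. Coding sequences and 3′ regions were read from the GENCODE M21 transcripts and promoters from RefSeq (GRCm38.p6).

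Members and lists were chosen with earlier results of these data known. Genes named are the 10 members, the 3 most abundant of each list, receptors of the members, and the 2 protein-coding genes of mean 5 TPM or more nearest to each member in log2(TPM + 1) profile. Some genes that this rule names are not reported here. Other list members, and the genes overlapping members, were named after their values were seen. There were 30 alternatives, and 3 were added after seeing the data.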

Additional observations from a re-analysis of the deposited data

How the results depend on the processing

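With 9 members detected, a detection level of 5 or 10 TPM left 8, without Ccl22. The number called variable was 4 with DESeq2 size factors, with DESeq2's trended dispersion and without the filter, and 3, without Ccl2, with the second transcript table's counts or a common dispersion. Leaving out 1 replicate gave 0 to 2 (0 without replicate 1, 2 without replicate 2 and 1 without replicate 3). Over all genes tested, the same 3 settings called 112, 102 and 81 genes, against 240 with all 3 libraries. The median of the 10 members' mean levels was 351 TPM. It was 202 TPM in the second transcript table and 1143 TPM when TPM was rescaled over nuclear protein-coding genes, and leaving out 1 replicate gave 279 to 409 TPM. Of 6 ratios, 5 kept 1 sign in every library, and the sixth, Ccl3 to Ccl4, averaged 0.25 from counts without length correction. The ratio of Ccl9 to Ccl6 was 1.51 with protein-coding transcripts alone. Of the single values, 124 moved by no more than 1 SD and 30 by more, and 0 changed sign among the 5 ratios with 1 sign. No paired analysis was possible because the libraries form 1 group. Depth sets the upper limit given for Ccl17.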

Other observations

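Over the 3 libraries, the protein-coding genes nearest in profile to Ccl3 were Atf3, a stress-induced transcription factor, at 231, 114 and 89.4 TPM, and Gca, at 11.3, 5.58 and 3.55 TPM. Those nearest to Ccl12 were Cebpb, a C/EBP transcription factor, at 52.1, 19.2 and 23.5 TPM, and Cmpk2, an interferon-induced kinase, at 490, 162 and 171 TPM. Likeness was measured as the root mean square distance of log2(TPM + 1), centred on each gene's mean, among 5857 genes. It was 0.028 for Atf3 and 0.067 for Cebpb. With 3 points per profile many genes lie close to some members: 2 genes were within 0.1 of Ccl12, 6 of Ccl4, 11 of Ccl3, 25 of Ccl2, 105 of Ccl7, 110 of Ccl5, 125 of Ccl9, 228 of Ccl6 and 659 of Ccl22. Among the 2 nearest to each of the other members were Extl2 and Mxd1 for Ccl2, Rps12-ps3 and Csrnp1 for Ccl4, Zscan29 and Tet3 for Ccl5, Fnbp1l and Fam102b for Ccl6, Id2 for Ccl7, Nfkbib and Nfe2l2 for Ccl9, and Snrpb2 for Ccl22. The nearest member to Ccl2 was Ccl3 (distance 0.054) and to Ccl6 was Ccl9 (0.078), while Ccl5 had no member within 0.1, its nearest being Ccl22 at 0.37. These distances are descriptions of 3 libraries that share a source.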
